A study of Brassica napus with 9 samples.

Results

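Late maturation genes of the rapeseed (Brassica napus) pod are described here, that is, genes whose counts rose steeply after 25 days after flowering (DAF) in each of 3 lines. A gene was taken when its normalized count at 45 DAF was at least 8-fold that at 25 DAF (log2 of at least 3) and the mean of both libraries was at least 1000, in each line, and 205 of the 91830 genes measured met the rule. Before the last condition 217 genes passed, and 12 of them were left out because they differed from Youngsan at 45 DAF by a log2 of 1 or more in the same direction in both transgenic lines. The members were thus chosen by their counts at 25 and 45 DAF, and their rise between these stages is given as a description.

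The lines were the cultivar Youngsan (libraries C1, C2 and C3), homozygous transgenic Youngsan with the acyl-ACP thioesterase CpFatB4 (41, 42 and 43) and homozygous transgenic Youngsan with CpFatB5 (51, 52 and 53), with the number giving the stage of 8, 25 or 45 DAF. Both transgenes are thioesterases of Cuphea paucipetala under a napin promoter of B. napus, which is active in the seed, and the study describes the plants whose seeds it analysed as offspring of a single parent for each transgenic line. RNA came from whole pods, so pod wall and seeds were measured together, and fewer cells of a type cannot be told apart from less RNA per cell. Each library was 1 pool of 3 RNA preparations, so that every line and stage had n = 1, no test between conditions could be run, and differences are differences between libraries.

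Late in seed development, after reserves have been laid down, the embryo acquires desiccation tolerance and enters dormancy. This phase is known for the accumulation of late embryogenesis abundant (LEA) proteins, which are hydrophilic and protect cell components as water is lost, and of proteins that coat the oil bodies. Abscisic acid and the transcription factors ABI3 and ABI5 are known in Arabidopsis to drive many of these genes. Some enzymes that will be used at germination, such as isocitrate lyase of the glyoxylate cycle, are also transcribed before the seed dries.

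Library totals lay between 38677752 counts (53) and 88259440 counts (C2). Normalized counts are median-of-ratios scaled counts per gene and are not corrected for gene length, so levels are compared between libraries and not between genes. A mean raw count under 3 was set to 3, so ratios against it are lower bounds. In 43 the 20 genes with the highest counts took 38.7% of all counts, against 9.15% in C3 and 18.1% in 53, and the 9 cruciferin genes named as a marker list summed to 11894900 normalized counts in 43, 2197990 in C3 and 1162590 in 53. The 11 genes paired with plastid psbA and rbcL, marking photosynthetic or organellar RNA, summed to 10104 in C3, 113939 in 43 and 559569 in 53. The part of these differences in the values below was not tested.

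Late embryo markers were set beside the label of a late maturation set. Of 16 genes paired with 5 of the 6 late embryo markers of Arabidopsis, 14 were members, and the 16 together summed to 51.3 to 162 normalized counts at 25 DAF and to 458392 (C3), 149984 (43) and 505940 (53) at 45 DAF. All 16 met the rule before genes were left out for line differences, so the rise of these sums was set by the rule and is no check of the label. No gene paired with napin, cruciferin, the seed coat laccase or the senescence protease SAG12 was a member. The laccase pair summed to 16085 in C2, 16077 in 42 and 17605 in 52, and to 786, 1970 and 355 in C3, 43 and 53, so this seed coat marker went the opposite way. By list, the members held 14 of 16 LEA genes with a counterpart in hand, 5 of 7 lectin and cupin genes, 13 of 30 oil body genes, 4 of 46 oil mobilisation genes, 2 of 10 regulators, none of 14 storage protein genes and none of 7 methionine sulfoxide reductase genes for redox protection. The raffinose and heat shock lists matched no gene. An Arabidopsis counterpart was in hand for 39 members, and the other 166 are known here by their identifiers. The descriptions came from lists that had been chosen for large changes in these same libraries, so the count of LEA genes is not independent evidence of a theme.

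The members went from a trace to a large part of the pod's RNA. In Youngsan they took 0.0514% of all counts at 8 DAF, 0.186% at 25 DAF and 12.2% at 45 DAF, with an exact binomial 95% interval of 12.18% to 12.20% for C3 that covers counting error only. In CpFatB4 the shares were 0.0548%, 0.261% and 4.57%. In CpFatB5 they were 0.0411%, 0.119% and 11%. The share in 43 was thus below that in C3 and 53, while 42 had the highest share at 25 DAF.

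**Figure D1:**
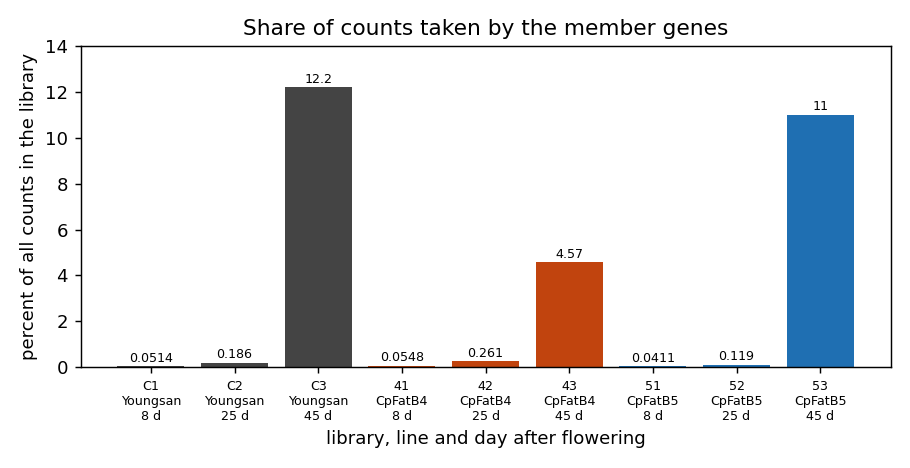
Bars give the percent of all counts in each of the 9 libraries that fell on the 205 member genes, by line and day after flowering, with 1 library per bar. The shares were 12.2% in C3, 4.57% in 43 and 11% in 53, and under 0.3% in every earlier library.

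The size of the rise varied widely among the members and between the lines. The log2 ratio of 45 to 25 DAF had a median of 7.13 for Youngsan (C2_C3), 5.32 for CpFatB4 (42_43) and 7.77 for CpFatB5 (52_53), against 0.03, -0.29 and -0.43 over all genes above the minimum of 1000. All 205 members passed a log2 of 3 by the rule, where 6.04%, 4.79% and 10.3% of all genes above the minimum did so in the 3 lines. The condition on all lines together, before genes were left out, was met by 4.14% of the genes above the minimum. The largest ratio was 14.18 for C2_C3, and the largest for 42_43 and 52_53 were 11.58 and 14.85. The members nearest the limit were BnaC04g12040D, BnaC09g00540D and BnaC03g60160D, whose lowest ratio over the lines was 3.01, 3.02 and 3.02, and the nearest genes outside were BnaC04g42700D, BnaA06g36310D and BnaA01g05960D at 2.99, 2.98 and 2.97. BnaA06g36310D is a cruciferin gene, so the limit runs through the upper end of the storage protein rises. The 5 list genes with the most counts at 45 DAF outside the set were cruciferins too, BnaA06g36310D among them, and BnaC07g48660D, BnaA08g13680D, BnaA01g08350D and BnaC01g09900D rose by 2.97, 2.22, 1.93 and 1.91 in Youngsan. In the same order they rose by 3.06, 3.31, 3.19 and 3.20 in CpFatB4, past the limit, and by 4.12, 3.14, 2.77 and 2.75 in CpFatB5. By the median over the lines the smallest rises in the set were those of BnaC04g12040D, BnaC03g60160D, BnaC02g31000D, BnaC03g02910D and the oleosin BnaA02g29000D, as in BnaC03g02910D with 398, 350 and 204 counts in C2, 42 and 52 and 3313, 3767 and 3041 in C3, 43 and 53.

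**Figure D2:**
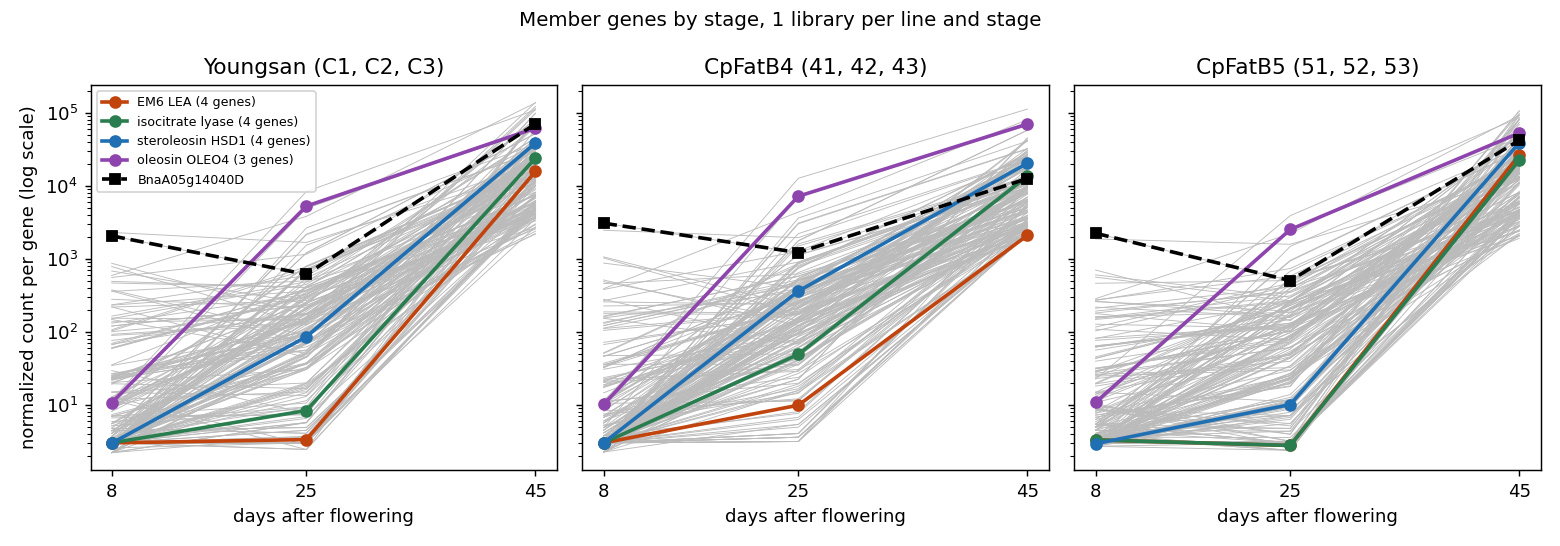
Normalized count per gene on a log axis against days after flowering for the 205 members (grey lines), in 3 panels for Youngsan, CpFatB4 and CpFatB5, with the median of 4 named families and the gene BnaA05g14040D on top. EM6 genes had at most 15.7 counts until 25 DAF, OLEO4 oleosins had already passed 2400 counts by then, and BnaA05g14040D started above 2000 counts at 8 DAF and dipped at 25 DAF.

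Among the LEA proteins, the 5 members paired with Arabidopsis M10 (AT2G41280) were among the steepest rises. BnaC04g47570D had 6.97, 7.30 and 81186 normalized counts in C1, C2 and C3. It had 3.74, 22.4 and 45654 in 41, 42 and 43, and 9.0, 3.16 and 84123 in 51, 52 and 53. Its log2 rises in the 3 lines were 13.44, 10.99 and 14.70, with counting intervals of 12.51 to 14.57, 10.43 to 11.62 and 13.35 to 16.58, which are wide because few reads lay behind the values at 25 DAF. BnaA04g23790D followed it closely, with 78894, 44449 and 81857 counts in C3, 43 and 53. The other M10 genes, BnaA05g02110D, BnaC03g23240D and BnaC04g01780D, had 26500, 17369 and 10241 counts in C3 and 3.14 counts or fewer in every library before 45 DAF.

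A further 4 members were paired with EM6 (AT2G40170), a small LEA protein that in Arabidopsis paces water loss in the maturing seed. Among them was BnaA05g34530D, which had the largest difference between the transgenic lines at 45 DAF of all members. BnaA05g34530D had 19292 counts in C3, 2009 in 43 and 36177 in 53, and BnaCnng27950D had 19184, 2022 and 35870. BnaA03g18930D had 12434, 2321 and 17794, and BnaC03g22490D had 11078, 2187 and 15055. At 25 DAF none of the 4 had more than 15.7 counts in any library. In each of the 4 genes 43 was the lowest and 53 the highest of the libraries at 45 DAF. The log2 ratio of 43 to C3 was between -3.26 and -2.34 and that of 53 to 43 between 2.78 and 4.17.

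The 3 members paired with the seed maturation LEA protein AT3G22490 showed the same order. BnaA05g17150D had 35004 counts in C3, 5649 in 43 and 47186 in 53, after 5.69, 4.03 and 4.74 counts in C2, 42 and 52. BnaC05g29980D and BnaC05g29930D had 34980 and 31894 counts in C3 and ratios of 43 to C3 of -2.62 and -2.63. The LEA group 1 genes BnaA05g08680D and BnaC04g09820D (AT2G35300) were less spread, with 4942 and 4673 counts in C3, 2938 and 2693 in 43 and 4648 and 4484 in 53. Both had 3.58 counts or fewer in all 6 earlier libraries. A further pair of LEA genes, BnaC04g48420D and BnaA04g24580D (AT2G42560), rose as steeply but was left out of the set, since it was lower than C3 in both 43 (-2.49 and -2.48) and 53 (-1.49 and -1.41).

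Lectin and cupin members were the other seed proteins with steep rises. The 3 members paired with the jacalin-type, mannose-binding lectin AT3G21380 were BnaC01g43710D, BnaA06g09710D and BnaC05g11200D. BnaC01g43710D had 59190 counts in C3, 6279 in 43 and 70276 in 53, after 7.71, 11.2 and 11.05 counts at 25 DAF. BnaA06g09710D had 47086, 5518 and 61969 counts, and BnaC05g11200D 45224, 5370 and 60515. As with EM6, 43 lay far below the other libraries, with log2 ratios to C3 of -3.24, -3.09 and -3.07. A 4th lectin gene, BnaC05g33270D, had 7329, 846 and 9051 counts and missed the minimum level in CpFatB4 alone. The cupin genes BnaCnng28630D and BnaA01g24560D, paired with the vicilin-like storage protein PAP85 (AT3G22640), differed less, with 82472 and 79515 counts in C3, 42793 and 41561 in 43 and 97361 and 92948 in 53. Another cupin gene of the list, BnaA07g13950D (AT2G28490), was no member. It was already at 7753, 10790 and 5784 counts in C2, 42 and 52 and rose by a log2 of only 1.20, 1.82 and 0.58.

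Of the regulators in the list, the pair paired with the CCCH zinc finger gene SOMNUS (AT1G03790), which in Arabidopsis holds back germination in the dark, belonged to the set. BnaA10g02150D had 5295 counts in C3, 2156 in 43 and 7014 in 53, and BnaC05g02070D had 5264, 2182 and 6941. Neither passed 3.58 counts in any library at 8 or 25 DAF. A gene for a protein phosphatase 2C, BnaC03g19110D (AT2G34740), went from under 3 counts at 25 DAF to 7182 in C3, 543 in 43 and 5699 in 53 and missed the minimum in 43. The ABI3 genes BnaA03g37510D and BnaC03g44820D, which are no members, were already at 1060 and 943 counts in C2, with a log2 change of 1.63 from 25 to 45 DAF in Youngsan. Not every regulator of the list rose. The basic-leucine zipper gene BnaC03g54810D (AT3G44460) fell from 485 counts in C2 to 294 in C3, and from 405 in 52 to 96.1 in 53. Its counts increased from 441 in 42 to 581 in 43. BnaCnng04010D, of the same type, had these directions too. The genes paired with AT2G40220, BnaA03g18970D, BnaC03g72510D and BnaCnng27900D, stayed at 151 counts or fewer throughout.

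Oil body proteins gave 13 members, about as many as the 14 LEA genes, and their oleosins and caleosins were well above the floor by 25 DAF. Oleosins are small proteins that coat oil bodies and keep them from fusing. The oleosin BnaA09g02110D (OLEO4, AT3G27660) had 11.7, 8413 and 110373 counts in C1, C2 and C3. It had 10.1, 12761 and 113443 in 41, 42 and 43, and 22.5, 3921 and 86891 in 51, 52 and 53. BnaC02g37030D and BnaA02g29000D of the same type had 62250 and 58878 counts in C3, 70736 and 67305 in 43, and 53297 and 45982 in 53. The OLEO2-type oleosin BnaC04g32530D (AT5G40420) had 37506, 41190 and 32849. In these 4 oleosins the 3 lines lay within a log2 of 0.55 of each other at 45 DAF.

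Caleosins are calcium-binding oil body proteins, and the 3 caleosin 1 members (AT4G26740) behaved like the oleosins. BnaA01g15860D had 2187, 3097 and 955 counts in C2, 42 and 52 and 29756, 32626 and 30185 in C3, 43 and 53. The ratios of BnaA01g15860D, BnaC01g18950D and BnaC08g12280D to C3 lay between 0.13 and 0.15 in 43 and between -0.01 and 0.02 in 53. Steroleosins, which are oil body dehydrogenases, came later. The HSD1-type gene BnaCnng57830D (AT5G50600) had 103, 441 and 10.7 counts in C2, 42 and 52, and 44460, 23814 and 46029 in C3, 43 and 53. BnaA02g11570D, BnaC03g27860D and BnaA03g23490D had the same order of libraries at 25 DAF, and the HSD5-type genes BnaC03g28790D and BnaA03g24220D (AT4G10020) had 160 and 154 counts in C2, 334 and 330 in 42, and 51.3 and 51.3 in 52.

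Over the whole oil body list, 23 of 23 genes above the minimum increased by a log2 of at least 1 from C2 to C3, 24 of 24 from 42 to 43 and 23 of 23 from 52 to 53, where 23.4%, 11.6% and 18.9% of all genes above the minimum did. Of these genes 13 were members, whose rise was set by the rule, so the counts are no independent result for the list. The 10 genes above the minimum in every line that did not reach the set were oleosins. These rose by 2.60 to 3.05 in Youngsan, 2.57 to 3.09 in CpFatB4 and 3.08 to 3.59 in CpFatB5. Their lowest rise was below the limit in each, as in the OLEO1-type gene BnaA08g14540D (AT4G25140), with 19137 counts in C2 and 124565 in C3 (2.70).

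Of the oil mobilisation list, only isocitrate lyase, which lets germinating seeds turn fatty acids into sugar, was in the set. Its 4 genes (AT3G21720) moved together. BnaC03g42310D had 8.53, 52.8 and 2.76 counts in C2, 42 and 52, and 24290, 14190 and 23287 in C3, 43 and 53. BnaA03g36420D, BnaA05g19530D and BnaCnng07050D had 24264, 24076 and 19665 counts in C3. Most other genes of this list, largely of peroxisomal beta-oxidation, changed less. The ketoacyl-CoA thiolase gene BnaA05g10480D (AT2G33150), for instance, had 3788 counts in C2 and 13310 in C3. Above the minimum, 20 of 28 list genes increased by a log2 of at least 1 from C2 to C3, 15 of 26 from 42 to 43 and 17 of 26 from 52 to 53. Of all genes above the minimum, 23.4%, 11.6% and 18.9% did so. These counts include the 4 isocitrate lyase genes, whose rise was set by the rule. Some genes rose steeply but did not reach the minimum in every line. The acyl-CoA synthetase gene BnaA06g28680D (AT5G27600) rose by 7.44, 4.73 and 7.45 in Youngsan, CpFatB4 and CpFatB5, and BnaC07g28060D by 7.43, 4.87 and 7.46. The patatin-like gene BnaA01g00820D (AT4G37060) rose by 5.23, 5.09 and 7.86, and BnaC01g01830D by 5.22, 5.10 and 7.85.

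Of the 12 members with the most counts at 45 DAF, 7 had no description. BnaC06g09330D had 138150 counts in C3, 81131 in 43 and 92675 in 53, and was already at 3836, 4393 and 2219 at 25 DAF. BnaC01g43700D had 139932, 32710 and 98411 counts at 45 DAF, after 162, 176 and 25.3 at 25 DAF. BnaC05g11190D (116935, 27354 and 80658) and BnaA06g09700D (111173, 25908 and 74324) had the same log2 ratio of 43 to C3 as BnaC01g43700D, -2.10. Each of these 3 carries the gene number next to that of a lectin member, BnaC01g43710D, BnaC05g11200D and BnaA06g09710D, yet the neighbours parted at 53: the lectin genes were at ratios of 0.25, 0.42 and 0.40 to C3, and the unnamed genes at -0.51, -0.54 and -0.58. BnaA01g25170D, which has no such neighbour in the set, had 123457, 28974 and 82416 counts and the ratios -2.09 and -0.58. BnaA01g21430D and BnaC01g26830D had 99561 and 99250 counts in C3, 30647 and 30540 in 43 and 107343 and 107061 in 53.

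At 8 DAF, a stage the rule did not use, most members were close to the floor. In all 3 libraries at 8 DAF 41 members were under 3 counts, and 22 had at least 100 normalized counts. From 8 to 25 DAF, 127 members increased by a log2 of at least 1 in each line with 10 or more raw counts at 25 DAF, 16 stayed under 10 raw counts at both stages in all lines, 4 decreased by a log2 of at least 1 in each line, and 58 did none of these. The log2 ratio of 25 to 8 DAF had a median of 2.64 for Youngsan (C1_C2), 4.18 for CpFatB4 (41_42) and 1.81 for CpFatB5 (51_52), with 73, 74 and 58 members under the floor at 8 DAF. Only 9, 10 and 6 members reached a mean of 1000 counts in these comparisons. Of them 7, 8 and 4 were higher at 25 DAF by a log2 of at least 1, where 19.2%, 21.2% and 18.6% of all genes above the minimum were, and 1 was lower in each line, where 8.14%, 7.41% and 9.06% were. A member near the floor at 8 DAF could reach this mean only through a high count at 25 DAF. Its direction was then set by the filter, so nothing is read from these counts. The 16 late genes included the 3 seed maturation LEA genes, both LEA group 1 genes, both SOMNUS genes, 3 of the M10 genes and the EM6 genes BnaA03g18930D and BnaC03g22490D.

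The 4 members that dipped at 25 DAF were BnaA05g14040D, BnaC06g10450D, BnaC03g68960D and BnaA08g01710D. BnaA05g14040D had 2072, 614 and 71317 counts in C1, C2 and C3. It had 3089, 1222 and 12653 in 41, 42 and 43, and 2249, 504 and 42590 in 51, 52 and 53. BnaC06g10450D went from 683, 876 and 704 counts at 8 DAF to 245, 402 and 142 at 25 DAF and to 64537, 11760 and 38694 at 45 DAF. Both genes ended lower in 43 than in C3, with ratios of -2.49 and -2.46. BnaC03g60160D also had a high level at 8 DAF, with 2308, 2471 and 1878 counts, but only dipped to 1684, 1956 and 1587 and ended at 16165, 22868 and 12913.

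BnaC03g68960D and BnaA08g01710D stood in 2 sets of consecutively numbered members, BnaC03g68950D to BnaC03g68970D on C03 and BnaA08g01700D to BnaA08g01720D on A08. BnaC03g68960D had 870, 1066 and 603 counts at 8 DAF, 172, 223 and 298 at 25 DAF, and 24091, 8979 and 16564 at 45 DAF. BnaA08g01710D had 786, 1030 and 562, then 124, 174 and 265, then 18679, 6967 and 12397. The outer genes of both sets were lower at 25 than at 8 DAF in every line too, as in BnaC03g68950D with 219, 279 and 177 counts at 8 DAF and 44.3, 71.2 and 102 at 25 DAF. At 25 DAF these genes had the order C2, 42, 52 from low to high, which differs from most members, and their ratio of 43 to C3 lay between -1.63 and -1.42. The 6 genes carry no description.

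**Figure D3:**
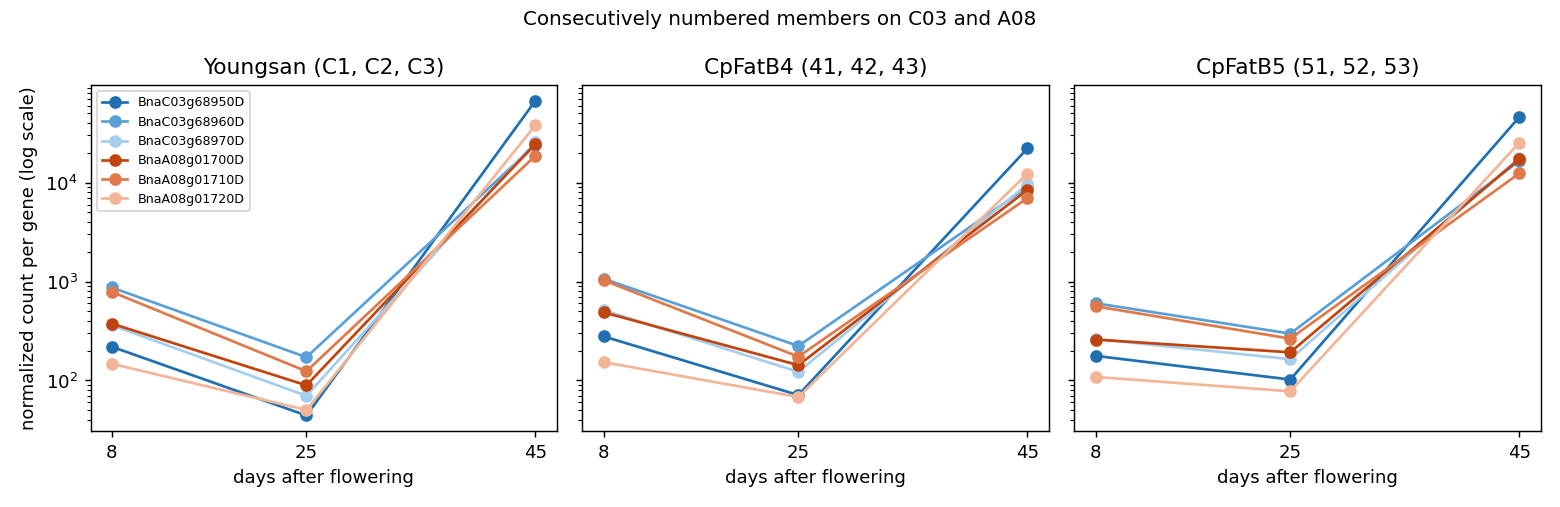
Normalized count per gene on a log axis against days after flowering for the 6 consecutively numbered members on C03 (blue) and A08 (orange), in 3 panels for the lines. Every gene was lower at 25 than at 8 DAF in every line and highest at 45 DAF, with 18679 to 67216 counts in C3.

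At 8 DAF few members had enough counts for a comparison of the lines. Only 2 members reached the minimum in C1_41 and C1_51, and neither differed by a log2 of 1. Of the background, 2.45% of genes were higher and 2.3% lower in 41 than in C1, and 2.15% and 1.68% in 51 than in C1. Over all 205 members without a minimum, 7 were higher and 26 lower in 41 than in C1 by a log2 of at least 1. In 51, 10 were higher and 21 lower than in C1. Most members lay near the floor there and no like share of all genes was computed, so these counts are not read further. BnaC03g31540D and BnaA03g26670D, below that minimum, had 468 and 492 counts in C1 against 161 and 164 in 41 and 181 and 193 in 51.

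At 25 DAF the members were further apart between the lines than other genes. With at least 10 raw counts in each of C2, 42 and 52, 159 members could be compared. The median log2 ratio to Youngsan was 0.54 in CpFatB4 (C2_42) and -0.61 in CpFatB5 (C2_52). Over all 60734 genes with as many reads the medians were -0.01 and -0.04. Of the 159 members 32 were higher in 42 than in C2 by a log2 of at least 1 and none was lower by as much, against 0.914% and 0.509% of all such genes. In C2_52, 51 were lower and 13 higher, against 0.835% and 1.21% of all such genes. Compared directly, 98 of the 159 members were lower in 52 than in 42 and 2 were higher, against 1.25% and 0.983%. The rule used these counts and asks for a low level at 25 DAF in every line, but not for a difference between the lines there. The other genes were not matched to the members for level or rise, so these differences are a description. The range between the lines was a log2 of 1.32 in the median member at 25 DAF and 0.89 at 45 DAF, against 0.22 and 0.85 over the 5196 genes that had these reads and were above the minimum in every line.

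Besides the HSD1 steroleosins, the difference was wide in the PAP85 cupins. The cupin BnaCnng28630D had 10.6 counts in C2, 159 in 42 and 3.95 in 52, and the glycine-rich protein gene BnaA09g18220D (AT2G05580) had 6.50, 113 and 2.37. At 45 DAF their order was not kept, since BnaCnng28630D was highest in 53 (97361) and lowest in 43 (42793). Reserve genes that are no members had the same order at 25 DAF: cruciferin genes summed to 536441, 1373350 and 151445 counts and napin genes to 42008, 68193 and 18900 in C2, 42 and 52. The SAG12 pair had 105289, 68178 and 69994 and the laccase pair 16085, 16077 and 17605. Other scalings moved the ratios between lines at 25 DAF by at most 0.17. The part of this wider shift of reserve genes in the members' differences was not tested.

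**Figure D4:**
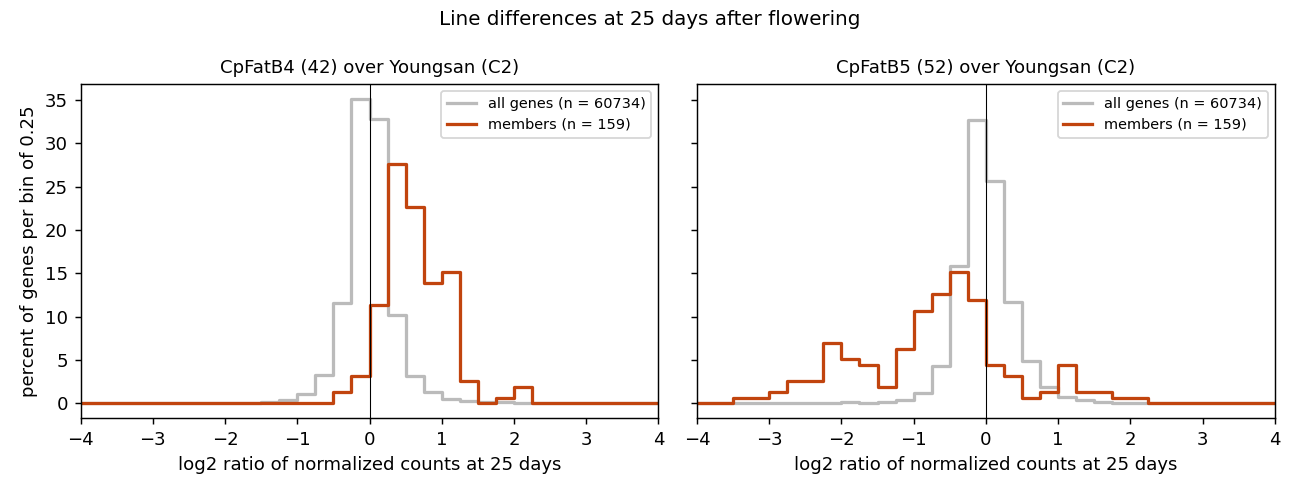
Percent of genes per bin of 0.25 against the log2 ratio of normalized counts at 25 DAF, for 42 over C2 (left) and 52 over C2 (right), with 159 members in orange and 60734 genes with at least 10 raw counts in grey. The members lie to the right of 0 for CpFatB4 (median 0.54) and mostly to the left for CpFatB5 (median -0.61), while all genes centre on 0.

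At 45 DAF the families parted in CpFatB4. Of the 205 members 79 were lower in 43 than in C3 by a log2 of at least 1 and 2 were higher, against 12.6% and 7.57% of all genes above the minimum. In 53, 9 were lower and 0 higher than in C3, against 12.8% and 4.01%. The rule left out genes with such differences in both comparisons, so these counts are descriptions. The median of the members was -0.83 for C3_43 and -0.11 for C3_53, where the medians of all genes above the minimum were -0.26 and -0.45, so that relative to these the members lay 0.57 lower in 43 and 0.34 higher in 53. Compared directly, 62 members were higher in 53 than in 43 and 7 lower, against 10.6% and 18.5% of all genes.

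All 4 EM6 genes, the 3 seed maturation LEA genes, the 3 lectin genes, both SOMNUS genes and 3 of the 5 M10 genes were among the 79 lower in 43. The isocitrate lyase, steroleosin, PAP85 and LEA group 1 genes lay between -0.96 and -0.75. Oleosins and caleosins lay between 0.04 and 0.19. With total count scaling every ratio of 43 to C3 was 0.49 lower, which put the second group past -1, moved the oleosins and caleosins below 0 and made 135 members lower. No member with a description was past 1 in either direction in 53 against C3. With size factors from genes of high counts the ratios of 53 to C3 were 0.47 higher, which put 2 EM6 genes and 1 M10 gene past 1 and turned the oleosins above 0.

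**Figure D5:**
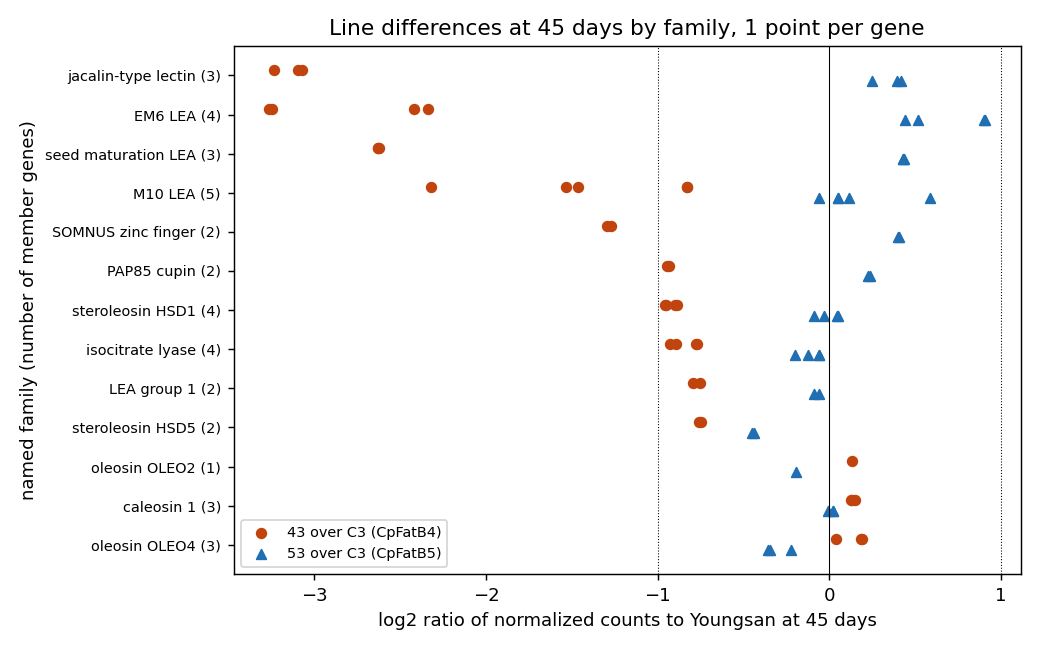
Log2 ratio of normalized counts to Youngsan at 45 DAF for the member genes of 13 named families, 1 point per gene, with 43 over C3 as circles and 53 over C3 as triangles and dotted lines at -1 and 1. Lectin and EM6 genes lie at or below -2.34 in 43, oleosins and caleosins within 0.19 of 0, and no triangle passes 1.

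The 2 members higher in 43 were an A09 and a C09 gene without description. BnaC09g14950D had 19.5, 98.5 and 4.34 counts in C2, 42 and 52 and 3803, 27506 and 4746 in C3, 43 and 53. BnaA09g14400D had 18.7, 96.7 and 3.55, then 3717, 26795 and 4625. Their ratio of 43 to C3 was 2.85 in both. No other member had a ratio above 0.50.

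The 9 members lower in 53 than in C3 had no description either. BnaA01g19290D had 13027 counts in C3, 7032 in 43 and 3663 in 53, and BnaC01g23250D had 11060, 5964 and 3201, with ratios of 53 to C3 of -1.83 and -1.79. BnaC01g31650D had 5877, 4378 and 1914 (-1.62). BnaA08g05540D, with 16598, 11508 and 5627 counts, was also low in 52, with 159 counts against 780 in C2 and 862 in 42. In these genes 53 was the lowest of the libraries at 45 DAF. That place was fixed by the rule, which left out genes lower by as much in both 43 and 53.

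Members came in look-alike pairs across the A and C subgenomes, which B. napus holds from its diploid parents. By their identifiers 97 members lay in the A and 108 in the C subgenome, that is 47.3% and 52.7%, against 49.8% and 50.0% of the 5244 genes above the minimum in every line. For 142 members the most similar other member was within a log2 of 0.5 in each of the 9 libraries. In 138 of these it lay in the other subgenome, and in 58 on the chromosome of the same number. No like share was computed over other genes, so such pairing is not read as a trait of the members. BnaCnng27850D and BnaA09g07980D had the same count in every raw column. How reads that match several copies were counted is not stated in the sources used here. In every library but 53, the mean total of both count columns exceeded the clean reads that the study lists. Such reads may thus have been counted at several genes, so paired genes are not independent observations. Of the 182 members placed on a chromosome, 13 (7.14%) stood in 5 runs of adjacent gene numbers. Over all placed genes above the minimum in every line, a larger set in which neighbours meet more easily, the share was 15.7%, so no clustering of the members is read from these runs.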

How the data were processed

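The authors trimmed reads, mapped them with Bowtie2 2.1.0 to coding sequences of B. napus from Genoscope and counted reads per gene. The deposited table holds 18 raw count columns, 2 per library, with whole numbers of at least 1. The sources used here do not say why a library has 2 columns, and these were averaged as repeat measurements. The largest SD of the log2 ratio of both columns over members with at least 100 counts was 0.123. A further 13 deposited columns hold normalized values that the authors rounded, recorded as a score. They were used as a check of the scaling only, and no value here differed from them by more than 0.500.

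Median-of-ratios size factors (0.513 to 1.37) were computed over the 18 columns with Python 3.11.15, numpy 2.4.6, pandas 2.3.3 and scipy 1.17.1, and the rule was tested on simulated data. Means of raw counts under 3 were set to 3. Comparisons between libraries used a minimum mean of 1000 normalized counts and a log2 of 1, or 10 raw counts in each library at 25 DAF. Intervals (95%, exact binomial) cover counting error only, and a count is not an independent molecule. Stages are days after flowering in the methods and days after fertilization in the labels. Arabidopsis counterparts and descriptions were taken from the study's supplementary tables, with none of their values. The gene lists hold late maturation genes of Arabidopsis.

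Genes named are the 12 with most counts at 45 DAF, the 5 largest and smallest rises, the 5 highest at 8 DAF, the 3 largest and smallest line ratios at 45 DAF, the 3 nearest on each side of the limit, up to 4 members per list and the leading list genes outside the set. Neighbours, copies and other genes named beside them were chosen after their values were seen. The members and lists were chosen with earlier results of these data known. Promoter and protein sequences were not analysed here.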

Additional observations from a re-analysis of the deposited data

How the results depend on the processing

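The number of members was 205 and became 121 with total count scaling, all of them members, and 385 with a minimum mean of 200 counts. It stayed between 151 and 281 under the other 7 settings. With total count scaling the median ratio was -1.32 for 43 to C3 and 1.18 for 53 to 43, 135 members were lower in 43 than in C3, the medians of 25 to 8 DAF were 2.39 (Youngsan), 3.92 (CpFatB4) and 1.68 (CpFatB5), and those of 45 to 25 DAF were 4.77 in CpFatB4 and 7.58 in CpFatB5. When size factors rested on genes averaging 1000 counts or more, the median of 53 to C3 was 0.36 in place of -0.11 and that of 53 to 43 was 1.08, 3 members were higher in 53 than in C3, the medians of 25 to 8 DAF were 2.30, 3.85 and 1.55, and those of 45 to 25 DAF 7.38, 5.63 and 8.45. A floor of 1 count gave medians of 25 to 8 DAF of 2.87, 4.82 and 2.04. The share of counts in 53 was 11.1% in the first and 10.95% in the second column. Of the 80 values under another setting, 56 kept within the spread of both columns or within 1.5 times the count. The shifts under another scaling follow from the size factors, which move all genes of a comparison alike. No paired analysis was possible because each line and stage has 1 library, and for the same reason no library could be left out in turn. Depth limits the ratios against 8 DAF most, since 73 (C1), 74 (41) and 58 (51) members were under 3 counts there, against 10, 0 and 16 in C2, 42 and 52.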

Other observations

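The study's table of gene ontology categories, which covers only genes it had called changed, names 37 members that have no other description here. Over all members with a category, 12 stood under multicellular organismal development, 7 under response to abiotic stimulus, 7 under response to chemical, 4 under oxidoreductase activity and 4 under transferase activity. The share of other genes in each category was not computed, so no theme is read from these counts. BnaA05g14040D, high at 8 and 45 DAF, stood under response to chemical and response to biotic stimulus, and BnaC03g60160D under isomerase activity. BnaC03g68960D, 1 of the consecutively numbered genes on C03, stood under multicellular organismal development. BnaA09g14400D, 1 of the pair that was higher in 43, stood under response to abiotic stimulus.

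The 12 genes left out for a line difference shared by both transgenic lines were all lower than in C3. BnaC09g36510D had 59484 counts in C3, 16556 in 43 and 25970 in 53. BnaA10g13870D had 55651, 15651 and 24029. BnaA04g05010D had 53243, 23411 and 22657, after 40.2 counts in C2, 203 in 42 and 41.0 in 52. They came in pairs of an A and a C gene, as most members did.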
